A study of Mus musculus with 6 samples.

Results

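The 10 genes described here encode cyclic nucleotide phosphodiesterases, the enzymes that IBMX, a component of the adipogenic medium, is added to inhibit. They are Pde1a, Pde3a, Pde3b, Pde4a, Pde4b, Pde4d, Pde7a, Pde7b, Pde8a and Pde10a, and they were taken by symbol from the 21436 genes of the deposited table. RNA sequencing was done on mouse 3T3-L1 cells, a wild-type embryonic fibroblast line that can turn into adipocytes under hormonal induction. All cells were kept for 72 h in a lower Transwell chamber, under a 0.4 µm membrane, in high-glucose medium with 10% serum, 2 µM of the PPARγ agonist rosiglitazone, 1 µM of the glucocorticoid dexamethasone, 0.5 mM IBMX and 10 mg/L insulin. The upper chamber was empty in 1 group (alone, 3 libraries) and held human umbilical cord mesenchymal stem cells in the other (co-culture, 3 libraries), so the comparison asks how the presence of the human cells altered transcript levels in the mouse cells. Both groups received IBMX, and there is no group without it, so the effect of IBMX itself on these genes cannot be read from the comparison. Whether each library stands for a culture of its own is not in the labels, and p-values therefore speak of the spread among these 6 libraries, part of which may be technical.

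Phosphodiesterases hydrolyse cyclic AMP and cyclic GMP, the second messengers that adenylyl and guanylyl cyclases make, and so end the signal that protein kinase A and other effectors receive. The Pde4, Pde7 and Pde8 enzymes are specific for cyclic AMP, those of the Pde3 family hydrolyse cyclic AMP and are inhibited by cyclic GMP, and Pde1a and Pde10a act on both nucleotides. In fat cells PDE3B is known for its part in the antilipolytic action of insulin. IBMX is a non-selective inhibitor of most families and raises cyclic AMP early in adipogenic induction, but the Pde8 family is known to be insensitive to it, so Pde8a is a phosphodiesterase and not a classical IBMX target.

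Of the 10 genes, 7 had a mean of at least 1 FPKM (reads divided by gene length and by the size of the library, the deposited unit) and were tested, and 3 were at the limit of detection. Pde4d, Pde4b and Pde1a fell in co-culture, by 24.3%, 13.9% and 12.2% of their mean FPKM. No member rose. Pde3b and Pde10a were lower in each co-culture library than in any library of cells alone but did not pass the test, and the groups overlapped for Pde4a and Pde7a. The 3 of 7 tested members called lower stand beside 17.9% of all 10055 tested genes called lower and 13.9% called higher (limma, Benjamini-Hochberg adjusted p below 0.05). The median log2 change was −0.13 over the 7 tested members and −0.0037 over all tested genes. In bulk RNA, fewer cells that express a gene and less RNA of it per cell cannot be told apart.

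The libraries held 29603755 to 38357563 reads. The markers of the labelled fibroblast type were present: all 6 listed ones (Pdgfra, Pdgfrb, Col1a1, Col1a2, Thy1 and Dlk1) were above 1 FPKM, with a summed level of 1441 to 1487 FPKM alone and 1539 to 1568 in co-culture. The adipocyte markers Adipoq, Plin1, Cidec, Cfd and Retn had 1, 24, 3, 2 and 3 reads over the 6 libraries. Among markers of other cells, the summed level of 5 macrophage genes was 0.875 to 1.97 FPKM alone and 0.269 to 0.562 in co-culture. Nearly all of it was Lyz2, with 149 reads alone and 47 in co-culture, while the leukocyte gene Ptprc had 7 and 3 reads and the macrophage genes Adgre1 and C1qa had 1 read in each group. The endothelial and epithelial lists summed to at most 0.256 FPKM in any library. Of 3 smooth muscle genes only Des reached 1 FPKM, and their sum was 1.04 to 1.41 FPKM alone and 1.36 to 1.61 in co-culture. The part of these cells in the results was not tested.

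In mm10 coordinates (GENCODE M21, counted from 1), Pde4d lies on the plus strand of chromosome 13 from 108449948 to 109953461 and Pde4b on the plus strand of chromosome 4 from 102087543 to 102607259. Pde4a lies on the plus strand of chromosome 9 from 21165714 to 21213248. Pde1a lies on the minus strand of chromosome 2 from 79834453 to 80129458, Pde3b on the plus strand of chromosome 7 from 114415281 to 114539251, Pde7a on the minus strand of chromosome 3 from 19223108 to 19311322, and Pde10a on the plus strand of chromosome 17 from 8525372 to 8986648. The Pde4 genes are known for their many promoters, which give long and short enzyme forms. The annotation lists 12 protein-coding transcripts with 12 start sites for Pde4d, 9 with 9 for Pde4b and 3 with 3 for Pde4a, and the deposited table gives 1 value per gene, so long and short forms cannot be told apart here.

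Because cyclic AMP can act on transcription through CREB, the RefSeq promoter windows (GRCm38.p6, 250 bases before to 50 after a start) were searched on both strands for the cyclic AMP response element TGACGTCA and its half-site TGACG, which the full element contains. The table held 16 windows for 7 of the members, and Pde3a, Pde3b and Pde7a had none. In 13 of the 16 the 50 bases after the start lie in a GENCODE transcript of the gene. The full element was in 0 of the 16 windows and in 1.79% of all 32851 windows, and the half-site was in 4 of the 16 (25%) and in 20.8% of all windows. The 250 bases before a start of Pde4b and those before the start of Pde4d that the table holds are shown because these are the 2 members with the largest falls on the log2 scale. The capitals mark a half-site, read as CGTCA on the strand shown, that begins 34 bases before the Pde4b start, and the Pde4d stretch has none. The table holds 4 windows for Pde4b, of which the 1 shown is the only one with a half-site, and 1 window for Pde4d. Both are on the plus strand, at chr4:102421305-102421554 and chr13:108653927-108654176.
Pde4b: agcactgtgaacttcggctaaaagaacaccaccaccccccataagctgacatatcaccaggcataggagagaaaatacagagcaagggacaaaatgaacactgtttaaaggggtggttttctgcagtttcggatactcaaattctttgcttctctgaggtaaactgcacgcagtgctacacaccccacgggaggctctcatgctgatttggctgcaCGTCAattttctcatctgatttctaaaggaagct
Pde4d: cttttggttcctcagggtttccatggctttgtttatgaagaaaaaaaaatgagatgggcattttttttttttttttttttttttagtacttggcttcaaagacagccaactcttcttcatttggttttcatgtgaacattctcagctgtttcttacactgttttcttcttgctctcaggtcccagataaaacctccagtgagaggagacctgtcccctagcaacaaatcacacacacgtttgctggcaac

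The half-sites of the other members are shown with their surroundings, in the gene's direction, to let their neighbouring bases be compared. In Pde4a the half-site begins 50 bases before a start (chr9:21184033-21184073, plus strand), in Pde1a 166 bases before one (chr2:80039046-80039086, minus strand) and in Pde8a 84 bases before one (chr7:81213163-81213203, plus strand). The 50 bases after that Pde8a start are not in a GENCODE transcript of the gene.
Pde4a: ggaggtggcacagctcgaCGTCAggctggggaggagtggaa
Pde1a: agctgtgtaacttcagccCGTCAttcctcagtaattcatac
Pde8a: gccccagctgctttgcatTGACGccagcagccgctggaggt
The half-site thus stood in windows of members that fell (Pde4b, Pde1a), of one that was not called (Pde4a) and of one with almost no reads (Pde8a). A match describes the letters of a window and not binding of a factor, and no match says only that the letters are not in that window.

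Pde4d, a cyclic AMP-specific phosphodiesterase that protein kinase A can activate by phosphorylation, had the largest change. It was at 4.71, 4.89 and 5.16 FPKM in the 3 libraries of cells alone and at 3.86, 3.61 and 3.70 FPKM in co-culture. Every co-culture library lay below every library of cells alone. The mean went from 4.92 ± 0.226 to 3.72 ± 0.124 FPKM (SD, n = 3 each), 1.32-fold lower, with a log2 change of −0.33 on the log2(FPKM + 1) scale (SE 0.054, limma adjusted p = 0.00136). The gene is deeply covered, with 29482 reads alone and 20690 in co-culture. Its absolute log2 change was larger than that of 92.6% of the tested genes, and the median absolute change of all called genes was 0.23. Adding 1 to the FPKM shrinks the change of a gene at this level, and the log2 change was −0.40 both with a pseudocount of 0.01 and when recovered reads were tested with limma-voom.

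Pde4b, which encodes a closely related cyclic AMP-specific enzyme with a large part in inflammatory cells, had the highest FPKM of the 10 genes. It was at 12.3, 13.1 and 12.9 FPKM alone and 11.01, 10.7 and 11.3 FPKM in co-culture. The groups did not overlap, with means of 12.8 ± 0.431 FPKM alone and 10.997 ± 0.307 FPKM in co-culture, a 1.16-fold difference (log2 change −0.20, SE 0.044, limma adjusted p = 0.00686). Pde4d and Pde4b were called lower under each of the alternatives in which they were tested, 14 for Pde4d and 15 for Pde4b.

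Pde4a, the remaining cyclic AMP-specific Pde4 enzyme among the members, was at 1.53, 1.38 and 1.53 FPKM alone and 1.60, 1.45 and 1.68 FPKM in co-culture. The groups overlapped, with means of 1.48 ± 0.0910 and 1.57 ± 0.119 FPKM (log2 change 0.053, 95% interval −0.090 to 0.196, limma adjusted p = 0.566). Its 1241 reads alone and 1224 in co-culture make it the least covered of the tested members.

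The ratios between Pde4 transcripts within a library separated the groups. They do not depend on how libraries are scaled. They were computed after the values of the members had been seen, so their separation partly restates those values. The 3 ratios are not independent, since each follows from the others. How often ratios of other genes separate the groups was not counted. The ratio of Pde4d to Pde4b FPKM was 0.383, 0.374 and 0.398 alone and 0.350, 0.338 and 0.328 in co-culture, a log2 difference of −0.19. The ratio of Pde4a to Pde4b was 0.116 ± 0.0101 alone and 0.143 ± 0.00690 in co-culture, and that of Pde4a to Pde4d was 0.301 ± 0.0225 and 0.423 ± 0.0280 (SD, n = 3). In all 3 ratios the groups did not overlap, and each had a two-sided exact permutation p of 0.1, which stayed at 0.1 after Benjamini-Hochberg adjustment over the 3 pairs and is the smallest that 3 libraries against 3 can give. Of the summed Pde4 FPKM, Pde4d made up 25.7 ± 0.530% alone and 22.9 ± 0.624% in co-culture, Pde4a 7.73 ± 0.589% and 9.65 ± 0.446%, and Pde4b 66.6 ± 0.881% and 67.5 ± 0.536%. These shares and the level of each ratio depend on the deposited gene lengths, while the log2 differences of the ratios between groups do not. With the same reads divided by GENCODE exon lengths the means in cells alone were 21.8 for Pde4d, 25.1 for Pde4b and 1.44 for Pde4a. Pde4d holds a larger share on that scale, which is too large if many of its reads lie outside those exons. Where its reads lie was not tested.

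**Figure D1:**
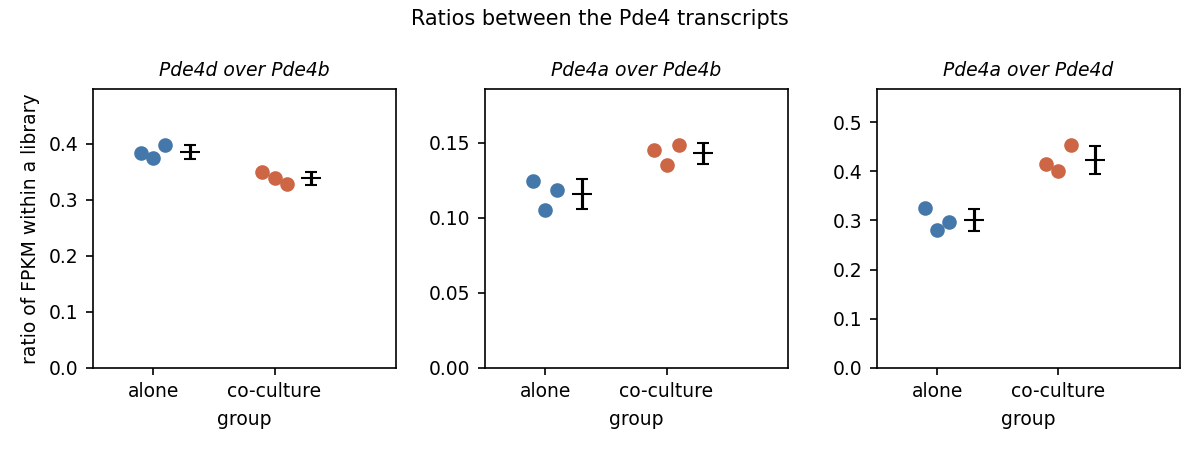
Ratios of FPKM between Pde4 genes within each library (vertical axes from 0, no unit) in cells alone and in co-culture. Points are libraries and the bars beside them the mean and SD (n = 3). The Pde4d to Pde4b ratio is lower in each co-culture library, and both ratios with Pde4a on top are higher.

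Pde1a, a phosphodiesterase stimulated by calcium and calmodulin, was at 10.5, 10.5 and 9.82 FPKM alone and 8.59, 9.18 and 9.31 FPKM in co-culture. The groups did not overlap, although alone replicate 3 lay close to the highest co-culture library. The means were 10.3 ± 0.396 FPKM alone and 9.03 ± 0.383 FPKM in co-culture, a 1.14-fold difference (log2 change −0.17, SE 0.049, limma adjusted p = 0.0232). The adjusted p rose past 0.05 without replicate 1 (0.0528) or 2 (0.0775) of the cells alone, without co-culture replicate 1 (0.0898), and when genes below 1 FPKM were tested too (0.0639).

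Pde3b, the phosphodiesterase through which insulin lowers cyclic AMP in adipocytes, was at 7.26, 7.14 and 7.47 FPKM alone and 6.81, 6.76 and 6.17 FPKM in co-culture. Its co-culture values were all below those of cells alone, with means of 7.29 ± 0.166 and 6.58 ± 0.358 FPKM. The difference did not pass (log2 change −0.13, 95% interval −0.244 to −0.017, limma adjusted p = 0.0770), and it was −0.091 without co-culture replicate 3, the lowest library. Lower groups without overlap were found for 24.8% of all tested genes and for 5 of the 7 tested members.

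Pde10a, an enzyme for both nucleotides that is best known from the striatum, was at 1.50, 1.58 and 1.77 FPKM alone and 1.42, 1.38 and 1.45 FPKM in co-culture. The groups did not overlap, and alone replicate 3 was the highest. The means were 1.62 ± 0.138 and 1.42 ± 0.0346 FPKM (log2 change −0.11, 95% interval −0.252 to 0.029, limma adjusted p = 0.208). On the recovered reads limma-voom called Pde3b (log2 change −0.15, adjusted p = 0.0451) and Pde10a (−0.19, adjusted p = 0.0311) lower too, which makes 5 members lower in place of 3. That fit called more genes lower in general, 1911 of 10055 against 1799 in the main fit.

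Pde7a, a cyclic AMP-specific enzyme of high affinity found in many tissues, was at 3.42, 3.62 and 3.71 FPKM alone and 3.92, 3.99 and 3.49 FPKM in co-culture. Co-culture replicates 1 and 2 lay above all libraries of cells alone, and co-culture replicate 3 lay within their range. The means were 3.58 ± 0.148 and 3.80 ± 0.270 FPKM (log2 change 0.066, 95% interval −0.067 to 0.199, limma adjusted p = 0.438). An antisense gene, Gm16093, shares 48 bp of exon with Pde7a, and whether the counting used strand is not given in the sources used here.

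**Figure D2:**
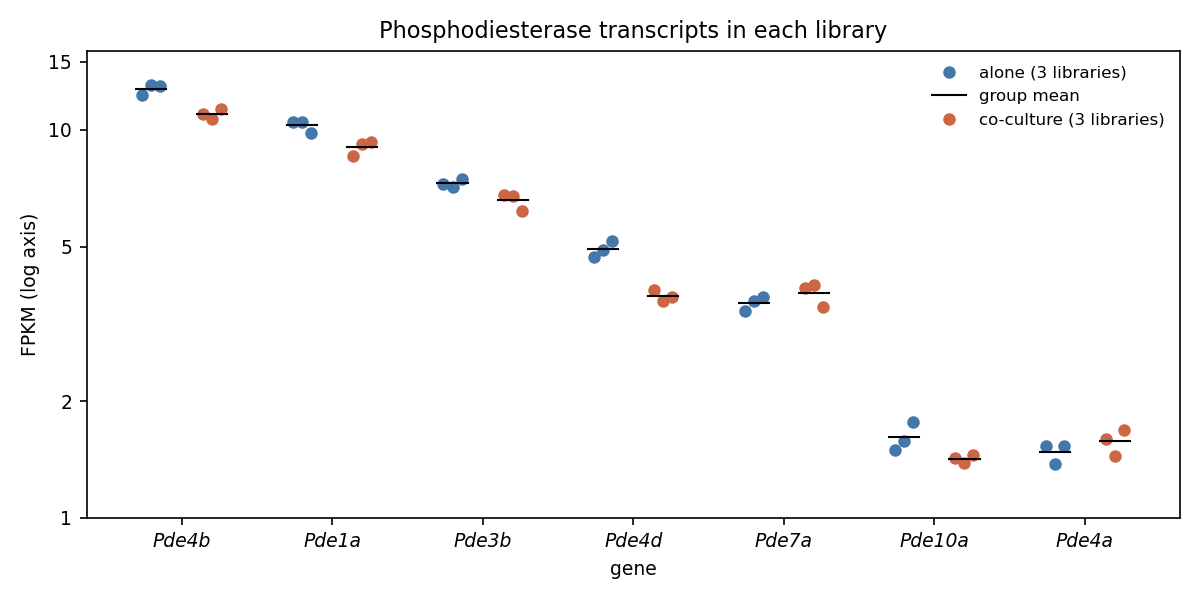
FPKM (log axis) of the 7 tested phosphodiesterase genes in each library, ordered by the mean in cells alone. Points are the 3 libraries of each group and lines the group means. The groups separate for Pde4b, Pde1a, Pde3b, Pde4d and Pde10a and overlap for Pde7a and Pde4a.

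**Figure D3:**
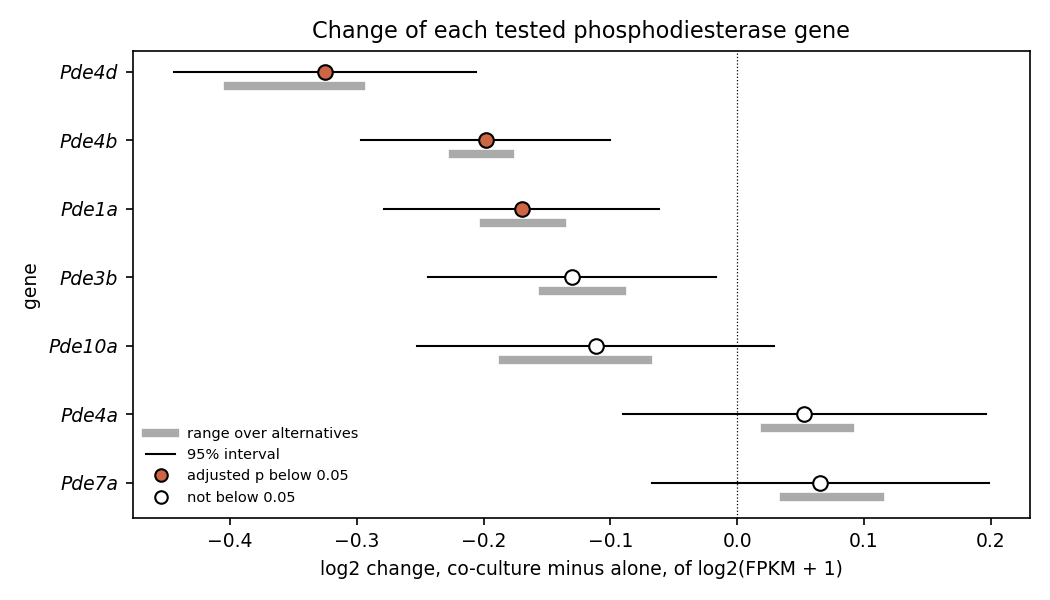
Change of each tested gene (horizontal axis, log2(FPKM + 1), co-culture minus alone) with its 95% interval from limma. Filled points passed an adjusted p of 0.05, and grey bars span the values under the alternatives. Pde4d is farthest from 0 at −0.33, and the grey bar of no gene crosses 0.

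The other 3 members were close to absent. Pde3a, the Pde3 form of heart and platelets, had 1, 0 and 1 reads in the libraries of cells alone and 0 in each co-culture library. Pde7b had 0, 2 and 3 reads alone and 0 in each co-culture library. Pde8a had 1 read in alone replicate 3 and 1 in co-culture replicate 2. A count of 0 allows up to 3 reads, which in the shallowest library corresponds to 0.00715 FPKM for Pde3a, 0.0183 for Pde7b and 0.0169 for Pde8a, for counting error only. Both groups are at or under that limit in every library, so no fold is given. Of the Pde3 genes, only Pde3b was well covered, with 4335 reads alone and 3627 in co-culture.

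In FPKM, the order of the members in cells alone was Pde4b, Pde1a, Pde3b, Pde4d, Pde7a, Pde10a and Pde4a, and only the last 2 overlapped over the libraries. In co-culture Pde7a (3.80 FPKM) and Pde4d (3.72 FPKM) overlapped, as did Pde4a (1.57 FPKM) and Pde10a (1.42 FPKM). The summed FPKM of all 10 was 41.2, 42.2 and 42.4 alone and 37.2, 37.1 and 37.1 in co-culture. Pde4b held 30.4 ± 0.607% of that sum alone and 29.6 ± 0.814% in co-culture, while Pde7a held 8.54 ± 0.224% and 10.2 ± 0.726%.

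The order among the genes, and with it the shares of a summed FPKM, depended on the gene length used. The lengths behind the deposited FPKM, recovered from the values, were 53295 bp for Pde4d, 20779 bp for Pde4b and 23501 bp for Pde10a, against 12006, 10560 and 12849 bp of exons in GENCODE M21. For Pde3b the deposited length was shorter, 5287 against 9114 bp. With reads divided by the GENCODE exon length and scaled to the library total in the same way, Pde4d stood next to Pde4b at the top of the order, with 21.8 ± 1.00 alone (n = 3) beside 25.1 ± 0.848 for Pde4b and 11.3 ± 0.436 for Pde1a. Pde3b was then at 4.23 ± 0.0963, overlapping Pde7a at 4.42 ± 0.182. The reads are those behind the deposited FPKM, and any that lie outside the GENCODE exons make a level on this scale too high. Where within the longer gene models the reads lie was not tested, so the place of Pde4d in the order is not settled. The change of each gene between groups does not depend on its length except through the pseudocount.

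**Figure D4:**
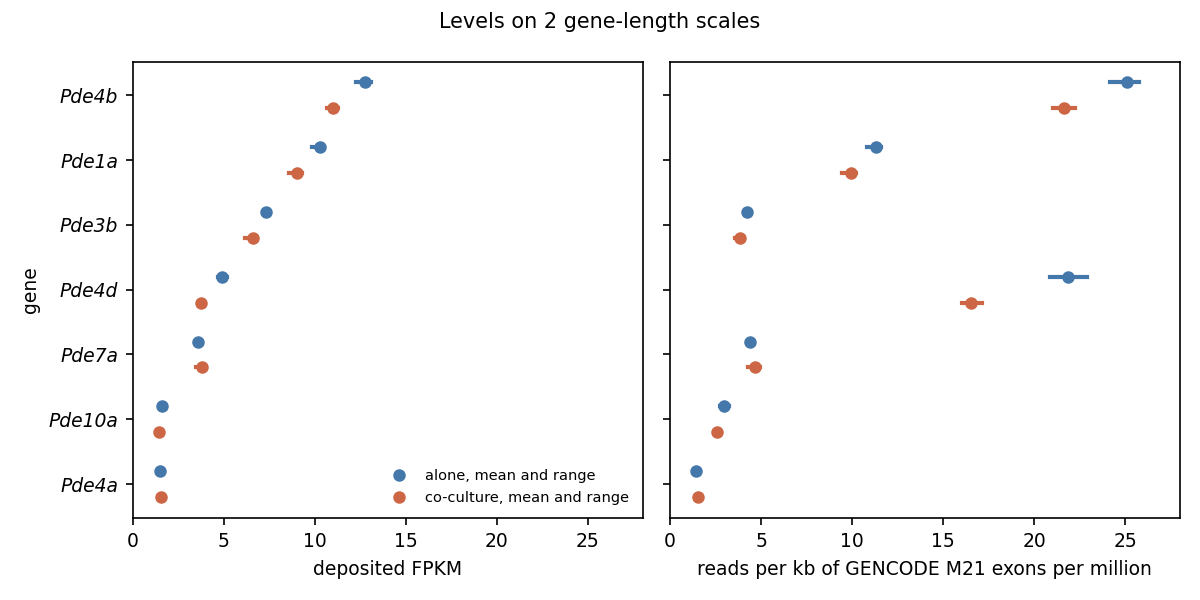
Mean level and range over 3 libraries of the 7 tested genes in each group, as deposited FPKM (left) and with the GENCODE M21 exon length in place of the deposited one (right). The reads are the same on both sides, and whether they lie in the GENCODE exons was not tested. Pde4d moves from 4.92 to 21.8 in cells alone, while Pde4a stays near 1.4 to 1.5.

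The genes whose pattern over the 6 libraries was most like that of Pde4d were Atp10a, a phospholipid flippase gene, Arl14ep and Gclc, the catalytic subunit of glutamate-cysteine ligase. Their mean absolute differences from Pde4d were 0.0166, 0.0170 and 0.0172 on the log2(FPKM + 1) scale, each gene centred on its own mean. Their log2 changes were −0.33, −0.31 and −0.32. The likeness is a description over 6 libraries, chosen from 10055 genes.

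Other genes named phosphodiesterases numbered 11 in the table, and 2 of them could be tested. With only 2 genes, beside 17.9% of all tested genes called lower, nothing about the list is read from the count. Both fell: Pde6d by a log2 of 0.22 (19.9 ± 0.359 to 17.0 ± 0.574 FPKM, limma adjusted p = 0.00241) and Pde12 by 0.20 (7.22 ± 0.211 to 6.18 ± 0.478 FPKM, adjusted p = 0.0253). Neither is a cyclic nucleotide hydrolase by itself, since Pde6d encodes a prenyl-binding chaperone and Pde12 a mitochondrial RNA exonuclease. Leaving out replicate 1 or 3 of either group ended the call on Pde12, which leaves 1 lower in place of 2, as did testing genes below 1 FPKM too (adjusted p = 0.0917). The 9 below the filter included Pde8b (71 reads alone and 102 in co-culture), Pde2a (88 and 84), Pde1b (72 and 81) and Pde5a (18 and 31), named after their values were seen. Of the cyclic nucleotide phosphodiesterase genes on either list, those that reached 1 FPKM were the 7 tested members.

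On the side of cyclic AMP synthesis, 5 of 13 measured genes for adenylyl cyclases and their G proteins were tested, of which 1 rose and 1 fell, beside 13.9% of all tested genes called higher and 17.9% lower. With so few genes tested, nothing about the list is read from these counts, nor from those of the effectors and anchors. Gnai2, an inhibitory G protein subunit, was higher (149.8 ± 4.94 to 173.0 ± 1.41 FPKM, log2 change 0.21, adjusted p = 0.00156). Adcy6, the adenylyl cyclase with the highest level here, was lower (8.86 ± 0.108 to 7.76 ± 0.250 FPKM, log2 change −0.17, adjusted p = 0.0155), although 0 of the list were called lower without co-culture replicate 2. The stimulatory subunit Gnas was at 90.5 ± 1.92 and 88.04 ± 0.691 FPKM (adjusted p = 0.386), and the cyclase Adcy9 at 2.44 ± 0.295 and 2.22 ± 0.293 FPKM (adjusted p = 0.406). The genes for the efflux pumps Abcc4 (9.06 and 8.25 FPKM, adjusted p = 0.0799) and Abcc5 (12.2 and 12.6 FPKM, adjusted p = 0.495) did not pass, although limma-voom on the recovered reads called Abcc4 lower (adjusted p = 0.0270).

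Among 7 tested effectors of cyclic AMP 1 rose and 2 fell (all tested genes: 13.9% higher and 17.9% lower). Rapgef3, which encodes the exchange factor EPAC1, went from 1.25 ± 0.0354 to 1.63 ± 0.0254 FPKM (log2 change 0.22, adjusted p = 0.0158), and was not called without co-culture replicate 3. Pkig, a protein kinase A inhibitor, went from 7.80 ± 0.148 to 6.60 ± 0.208 FPKM (log2 change −0.21, adjusted p = 0.00636), and the regulatory subunit gene Prkar2b from 44.3 ± 0.532 to 41.2 ± 0.859 FPKM (log2 change −0.10, adjusted p = 0.0422). The call on Prkar2b was lost when any library other than alone replicate 1 was left out, and also with median-ratio scaling (adjusted p = 0.0613), TPM scaling (0.0611) and a fit without a trend (0.0849), which leaves 1 of the 2 lower. The catalytic subunit genes Prkaca (37.5 ± 1.84 and 37.2 ± 0.850 FPKM) and Prkacb (26.0 ± 1.79 and 25.6 ± 0.782 FPKM) overlapped between groups.

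Of 12 tested anchors and scaffolds that place phosphodiesterases or protein kinase A in the cell, 3 rose and 2 fell, against 13.9% higher and 17.9% lower over all tested genes. Pde4dip, which encodes the Pde4d-interacting protein myomegalin, fell from 5.65 ± 0.190 to 4.65 ± 0.196 FPKM (log2 change −0.24, adjusted p = 0.00655), and Ndel1 fell from 31.8 ± 0.535 to 27.7 ± 0.614 FPKM. The A-kinase anchors Akap8 (37.2 ± 0.763 to 43.1 ± 0.972 FPKM) and Akap12 (2.51 ± 0.190 to 3.30 ± 0.142 FPKM) rose. The β-arrestin gene Arrb1, named after its values were seen, also rose (3.60 ± 0.135 to 4.14 ± 0.203 FPKM, adjusted p = 0.0487), a call lost on leaving out any library except alone replicate 1, with TPM scaling (adjusted p = 0.0727) and when genes below 1 FPKM were tested too (0.107). Disc1, which was below that filter and is named after its values were seen, was called higher when it was tested (0.113 ± 0.00267 to 0.154 ± 0.00794 FPKM, adjusted p = 0.0348). Akap11 was lower in co-culture without overlap but did not pass (73.8 ± 5.34 to 67.1 ± 0.432 FPKM, limma adjusted p = 0.0601). It was called lower by limma-voom on the recovered reads (adjusted p = 0.0323) and without alone replicate 1 (0.00248), which makes 3 lower in place of 2.

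On the cyclic GMP side, 3 of 9 measured genes were tested, of which 1 rose and 1 fell (all tested genes: 13.9% higher and 17.9% lower). Nothing about this list is read from so few genes. Npr3, the natriuretic peptide clearance receptor, rose from 1.93 ± 0.121 to 3.07 ± 0.317 FPKM (log2 change 0.47, adjusted p = 7.08e-04). Prkg2, a cyclic GMP-dependent kinase gene, fell from 11.8 ± 0.737 to 10.2 ± 0.306 FPKM (adjusted p = 0.0147), and 0 were called lower without alone replicate 3, without co-culture replicate 2, or when genes below 1 FPKM were tested too (0.0627). The receptor cyclase gene Npr2 was at 8.04 ± 0.631 and 8.81 ± 0.761 FPKM (adjusted p = 0.216). Gucy1a1 and Gucy1b1, the subunits of soluble guanylyl cyclase, had 1 read each in cells alone and 0 in co-culture.

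Of 16 tested cyclic AMP-responsive genes and their regulators 11 fell and 1 rose, with a median log2 change of −0.56, where 17.9% of all tested genes were called lower, 13.9% higher, and the median was −0.0037. The list was chosen with earlier results of these data known, so the contrast with all genes describes the list and is no test of it. Whether cyclic AMP had a part in these changes was not tested. Ptgs2 (60.1 ± 3.44 to 16.7 ± 1.45 FPKM, log2 change −1.79) and Stc1 (21.7 ± 2.36 to 6.58 ± 0.957 FPKM, −1.59) moved most, and Junb and Cebpb also fell. Creb1, the cyclic AMP-responsive factor itself, was at 8.35 ± 0.278 and 7.63 ± 0.179 FPKM (log2 change −0.12, adjusted p = 0.0823, but 0.0330 by limma-voom of recovered reads). The 1 that rose was the coactivator gene Crtc1, named after its values were seen, and its call was lost on leaving out any library except alone replicate 2 and when genes below 1 FPKM were tested too (adjusted p = 0.0855). Of the 4 listed genes below the filter, Fosb, an AP-1 subunit gene, went the other way from most of the list. It had 0.327 ± 0.109 FPKM alone and 0.809 ± 0.0556 FPKM in co-culture (138 and 320 reads), the groups did not overlap, and it was called higher when genes below 1 FPKM were tested too (log2 change 0.45, adjusted p = 0.0146). Crem, Nr4a3 and Ppargc1a overlapped between groups and were not called in that fit. These 4 were named after their values were seen.

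**Figure D5:**
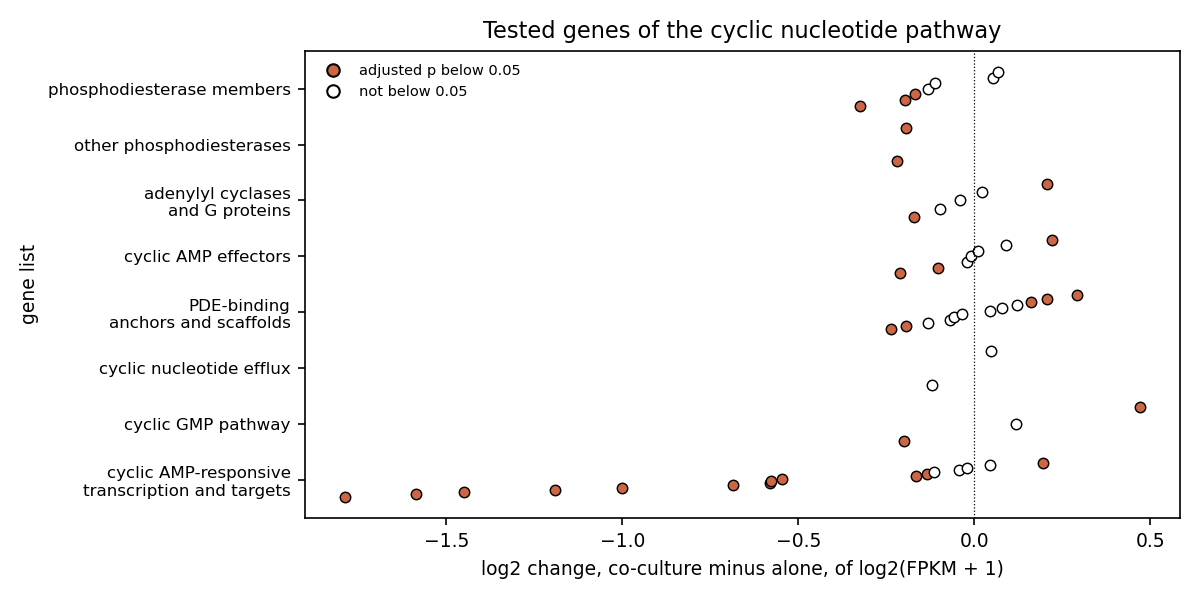
Log2 change (co-culture minus alone, log2(FPKM + 1)) of each tested gene in the 10-member phosphodiesterase group and in 7 lists of the cyclic nucleotide pathway. Filled points passed an adjusted p of 0.05. The phosphodiesterases lie between −0.33 and 0.066, and several cyclic AMP-responsive genes lie below −1.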

How the data were processed

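RNA sequencing of 6 libraries (3 alone, 3 co-culture) was used. The authors deposited FPKM values, 1 per gene and library. Per the submitters' processing notes the tools were fastp, HISAT2 and HTSeq, on mm10. Not given in the sources used here are their versions, the annotation, the strand setting and the handling of human reads. Per the labels' protocols, RNA came from TRIzol extraction of total RNA and went into VAHTS Universal V6 libraries. Each value column has a name that matches 1 sample.

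Ratios of FPKM values between libraries gave whole reads and gene lengths for all 21436 genes (tolerance 1e-06), on a scale set by the mitochondrial COX1 gene (1545 bp). Lengths came out whole (within 0.001 bp) for 99.1% of 12053 genes that had 100 or more reads. Where a length was not whole, reads and length were multiplied by a whole number that made it so. This was done for 419 genes, and the lengths were then whole for 100% of the 12053. Such reads carry no molecular identifiers, so they count fragments and not molecules.

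Genes averaging 1 FPKM or more (10055) were tested with limma 3.58.1 (R 4.3.3, trend) on log2(FPKM + 1), without a replicate block, and called at a Benjamini-Hochberg adjusted p below 0.05. The fit was tested on simulated reads. Members and lists were chosen with earlier results of these data known. All members are given. From each list, up to 4 called genes by smallest p and 3 others by highest mean could be named. Alternatives tried were a pseudocount of 0.1 or 0.01, no filter, a filter at 5 FPKM, median-ratio and TPM scaling, no trend, the replicate block, limma-voom on recovered reads and each library left out. GENCODE lengths and ratios between Pde4 genes were added after seeing the data. Positions are from GENCODE M21 and promoter sequences from RefSeq (GRCm38.p6).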

Additional observations from a re-analysis of the deposited data

How the results depend on the processing

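The direction of each of the 7 tested members was the same in all 101 combinations of member and alternative. Part of this was fixed in advance. The change of filter, the fit without a trend and the replicate block leave each log2 change as it is and cannot alter a direction. Of the 101 combinations, 95 also stayed on the same side of the threshold. The exceptions were 4 for Pde1a (adjusted p up to 0.0898) and 1 each for Pde3b and Pde10a, which passed with limma-voom on the recovered reads. That alternative called 5 members lower in place of 3, and 1911 of all tested genes lower in place of 1799. With 1 library left out the number of members called lower was 2 to 3, and that of all genes called lower 1374 to 1753, against 1799. The number of all genes called higher was 925 to 1419, against 1402, with the lowest value on leaving out co-culture replicate 3. The labels link samples with the same replicate number by that number only, and whether they shared a batch is not given. The correlations of the deviations of same-numbered samples from the group means across genes were −0.044, 0.109 and −0.083, and the replicates were not treated as pairs. With the replicate block 1258 genes were called higher and 1640 lower (1402 and 1799 without it), and the members called lower were 3 in both fits. Of the list genes, Prkar2b (adjusted p = 0.0706), Arrb1 (0.0768), Crtc1 (0.0505) and Per1 (0.0613) were not called with the block, so 0 of the cyclic AMP-responsive list were higher. Per1 was also lost with TPM scaling (0.0540) and on leaving out any library except alone replicate 1 (adjusted p up to 0.104). Scaling moved the median log2 change of all tested genes by less than 0.1. Depth limits Pde3a, Pde7b and Pde8a, which had at most 5 reads in a group, and no fold or test of them is interpretable.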
